A study of Equus caballus with 10 samples.

Results

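The genes described here are the subunits, activators and assembly factors of the proteasome, measured in ejaculated spermatozoa of 10 warmblood stallions (horse, Equus caballus). They were chosen by symbol: a probe set had to carry a single gene symbol in the platform's annotation, and the symbol had to begin with PSM, a letter from A to G and a digit. Where a gene had several such probe sets, the one with the highest mean over the 10 arrays was kept. The rule took 47 of 16661 genes with a single-symbol probe set, among 30559 probe sets in all. Of the 47, 18 belong to the barrel-shaped core particle, 20 to its caps, activators and inhibitor, and 7 are assembly chaperones. The remaining 2 are no proteasome genes although their symbols match: PSMC3IP encodes a partner of the meiotic recombinases, and PSME3IP1 a binding partner of the activator subunit PSME3. PSMB2, PSMD4 and PSME3 have probe sets only in combination with another symbol and were not analysed here.

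The proteasome degrades proteins that have been tagged with ubiquitin. Its core, the 20S particle, stacks rings of alpha and beta subunits, and the proteolytic sites lie on beta subunits inside the barrel. The 19S regulatory particle sits on the core, and its ATPases unfold the substrate while its other subunits bind and remove ubiquitin. In mouse testis a germ-cell alpha subunit, PSMA8, stands in for PSMA7, and the activator PSME4 takes part in the loss of acetylated histones while sperm chromatin is compacted. Proteasomes are retained in ripe sperm, and in several mammals they have been tied to the acrosome and the egg coat.

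Each array held the total RNA of sperm from 1 stallion, for which 4 ejaculates were taken. All were warmblood stallions old enough to breed, housed at an insemination center, and no agent was given. Groups are named by season and then by fertility class. Stallions 1 and 2 formed the autumn-high group (n = 2), stallions 3, 4 and 9 the spring-high group (n = 3), stallions 5 and 6 the autumn-low group (n = 2), and stallions 7, 8 and 10 the spring-low group (n = 3). The title of stallion 9's array reads as autumn while its season field says spring, and the field was followed. The labels place all sampling in the breeding season although 4 stallions carry the season autumn, and they do not say how fertility was assessed or whether somatic cells were removed. The series describes a layout by season and fertility, so the comparisons are spring against autumn, low against high fertility, and whether the season difference changes with fertility class.

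All values are log2 signals of 1 probe set per gene, as deposited, with a floor of 4. A difference of 1 is a doubling of signal. Probe sets bind their targets with different strength, so levels of different genes are not compared. The arrays of stallions 2, 9 and 10 stood apart as a whole: their medians were 5.07 to 5.10 against 5.24 to 5.49 on the other 7, and they had 2764 to 2920 probe sets on the floor against 842 to 2129. The 12 sperm markers, protamine and transition protein genes among them, averaged 9.32 to 9.93 on these 3 arrays and 10.67 to 11.44 on the others. Bulk RNA of a sperm sample does not separate fewer cells of a type from less RNA per cell. No 2 arrays were identical.

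No proteasome gene differed past the threshold by season, by fertility class or in the interaction of both. In limma, with Benjamini-Hochberg adjustment over all 30559 probe sets, 0 of 47 members passed in each of the 3 comparisons and in a test for any difference among the 4 groups, and every member's adjusted p was 1. Over all probe sets 1 passed in each of these 4 tests, which is 0.00327%. At an unadjusted p under 0.05, PSMC1 was the 1 member counted for fertility, with 0 for season, the interaction and any group difference. Over all probe sets the shares at that level were 2.59% for fertility, 4.18% for season, 3.79% for the interaction and 3.24% for any group difference. A fit without moderation of the variance also called 0 members in each test.

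**Figure D1:**
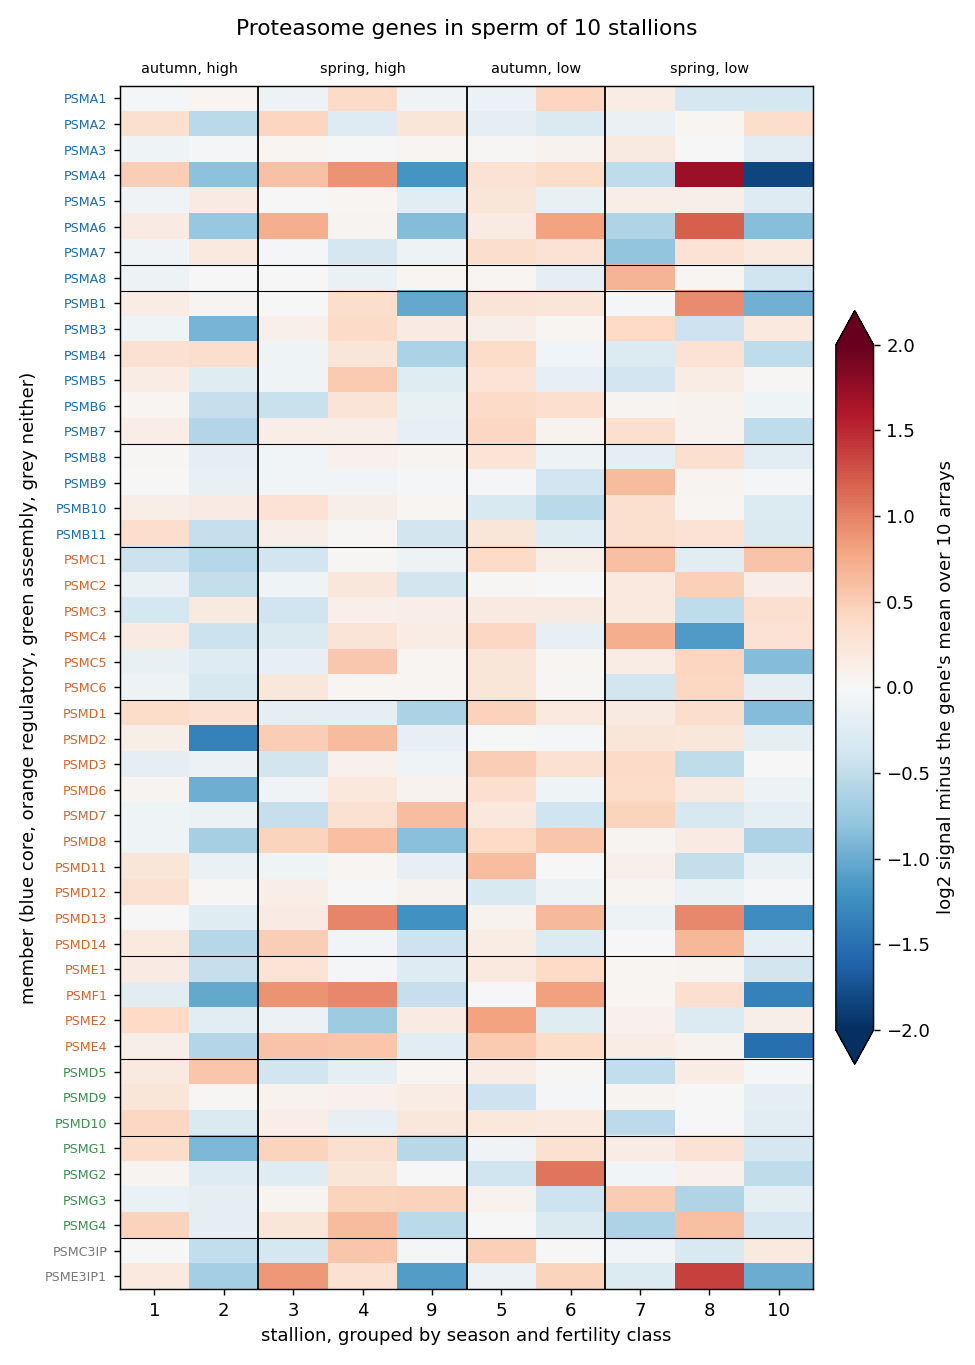
Log2 signal of each of the 47 members on each array, as the difference from that gene's mean over the 10 arrays (colour), with stallions in columns by group and members in rows by role. The strongest blue cells lie in the columns of stallions 2, 9 and 10, as for PSMA4, PSMD13 and PSME4, while PSMA3, PSMA5 and PSMB8 stay pale throughout.

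Members differed widely in how much they varied between stallions. The range over the 10 arrays had a median of 1.09 over the members and 1.06 over all genes. In 6 of 47 members (12.8%) it was above 2, against 10.8% of all genes, and in 17 (36.2%) it was under 1, against 44.7%. The 6 were PSMA4, PSMA6, PSMD13, PSME4, PSMF1 and PSME3IP1. A range is a description of these animals and arrays together, since each stallion was measured on a single array.

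Among the alpha subunits of the core, PSMA4 and PSMA6 varied most. PSMA4 had the largest range of all members, 3.55. It stood at 6.78 and 5.47 in the autumn-high group, at 6.88, 7.19 and 5.11 in the spring-high group, at 6.59 and 6.66 in the autumn-low group, and at 5.79, 8.01 and 4.46 in the spring-low group. The last value of each of the 3 groups that hold a low-signal array belongs to that array, and it is the lowest of its group. Group means ran only from 6.09 ± 1.79 (SD, n = 3, the spring-low group) to 6.62 ± 0.05 (n = 2, the autumn-low group), so the groups overlapped throughout. PSMA4 differed by -0.14 (SE 0.69) for season and 0.10 (SE 0.69) for fertility.

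PSMA6 was likewise lowest on the low-signal array of each group that holds one. Its signal was 6.46 and 5.55 in stallions 1 and 2, 7.03, 6.35 and 5.43 in stallions 3, 4 and 9, 6.46 and 7.10 in stallions 5 and 6, and 5.70, 7.49 and 5.45 in stallions 7, 8 and 10. Stallions 2, 9 and 10 were again the lowest. The other alpha subunit genes of the common core were flatter, with PSMA7 (range 1.14) the widest of them. PSMA3 had the smallest range of all members, 0.40, with signals from 5.03 to 5.43, and PSMA5 lay between 4.50 and 5.0. PSMA1 had a second probe set, which ran from 4.31 to 4.90 where the one used ran from 4.69 to 5.47. They disagreed in stallion 6, which was the highest on the first (5.47) and the lowest on the other (4.31).

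PSMA8, the germ-cell alpha subunit, was nearly level across groups. It stood at 5.50 and 5.59 in the autumn-high group, at 5.59, 5.46 and 5.64 in the spring-high group, at 5.64 and 5.42 in the autumn-low group, and at 6.28, 5.63 and 5.19 in the spring-low group. The highest and the lowest value thus came from the same group, stallions 7 and 10. Its difference was 0.09 (SE 0.21) by season and 0.06 (SE 0.21) by fertility, and the interaction was 0.15 (SE 0.42).

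PSMA7, the subunit that PSMA8 stands in for in mouse, had its lowest signal where PSMA8 had its highest. In stallion 7 PSMA7 was 4.95, and in the other 9 it ran from 5.40 to 6.09. In stallion 10, with the lowest PSMA8, PSMA7 was 5.93, inside the range of the rest. PSMA7 averaged 6.06 ± 0.04 (n = 2) in the autumn-low group and 5.58 ± 0.17 (n = 3) in the spring-high group, and its season difference was -0.32 (SE 0.23, adjusted p = 1 in limma).

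**Figure D2:**
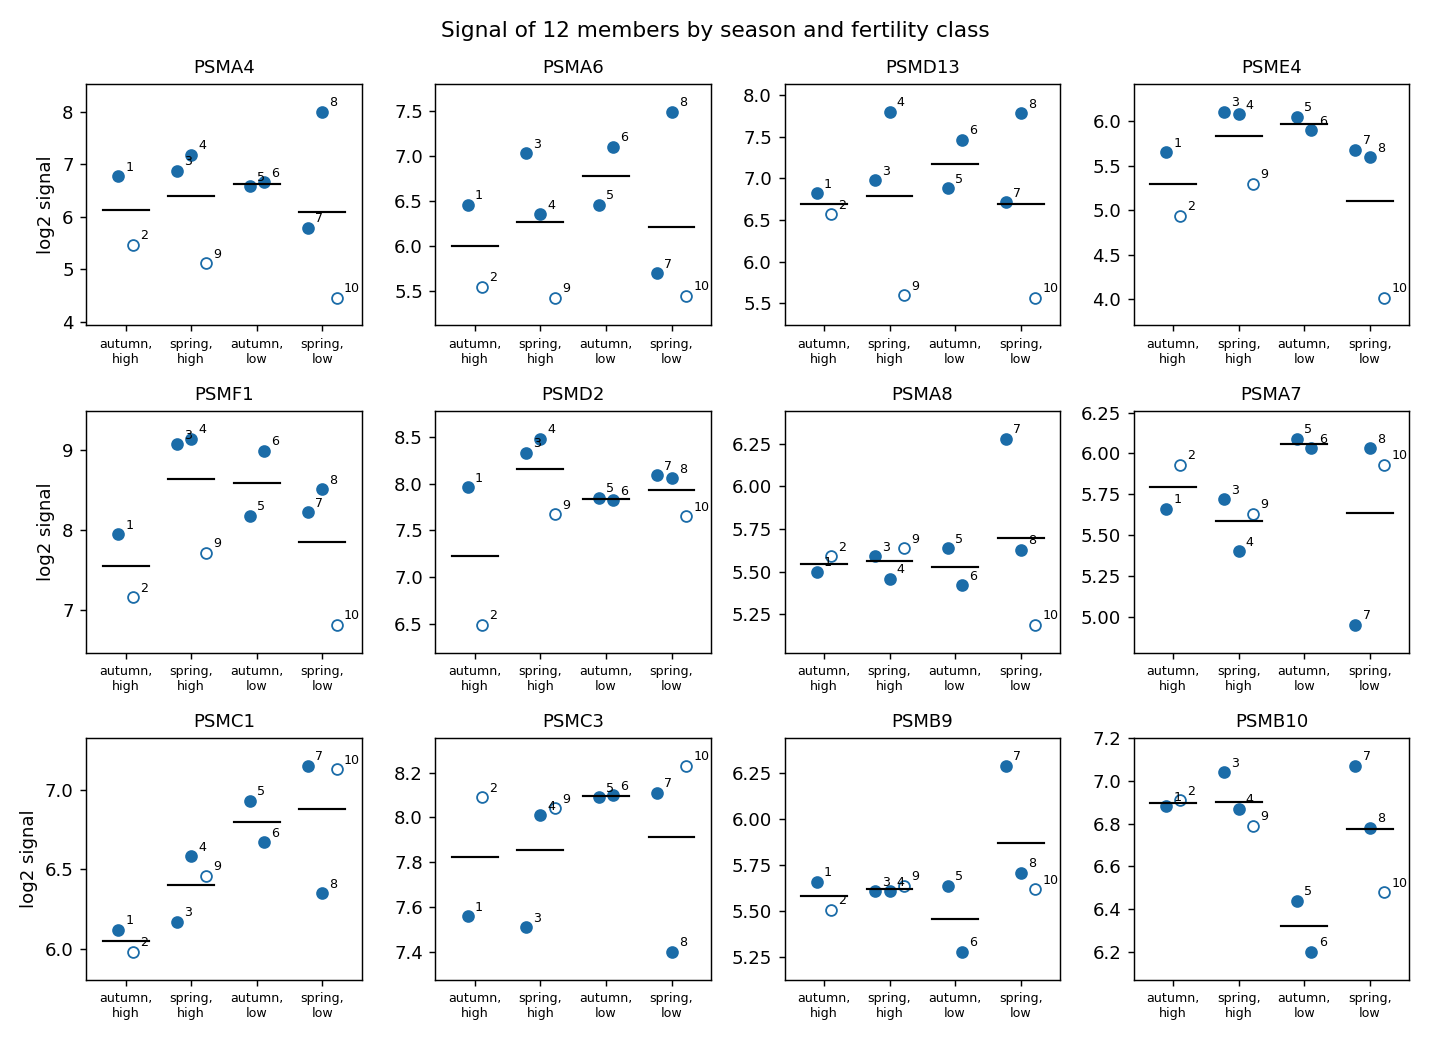
Log2 signal (vertical axis, scaled per panel) of 12 members by group (horizontal axis). Each point is a stallion with its number, open points are stallions 2, 9 and 10, and bars are group means. PSMA4, PSMA6, PSMD13, PSME4 and PSMF1 have their open points low, PSMA8 lies between 5.42 and 5.64 in all but stallions 7 and 10, and PSMC1 is higher in most low-fertility stallions. PSMA6, PSMD13 and PSMC3 were chosen after their values were seen.

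Of the 6 constitutive beta subunit genes, PSMB1, a structural member of the ring, varied most, from 5.08 in stallion 9 and 5.13 in stallion 10 to 7.05 in stallion 8. The remaining 7 arrays lay between 6.06 and 6.45. PSMB5, PSMB6 and PSMB7 encode the catalytic subunits. The mean of PSMB6 was higher in the low class by 0.34 (SE 0.18, adjusted p = 1), with 6.63 and 6.12 in autumn and 6.15, 6.85 and 6.44 in spring among high-fertility stallions, and 6.97 and 6.92 in autumn and 6.64, 6.66 and 6.5 in spring among low-fertility ones. Without stallion 2 the difference was 0.22. The classes overlapped, since 6.63 and 6.85 exceed the lowest values of the low class. PSMB5 differed by -0.02 (SE 0.21) and PSMB7 by 0.20 (SE 0.22) for fertility. By season, PSMB4 differed by -0.40 (SE 0.23, spring minus autumn) and PSMB3 by 0.35 (SE 0.22). PSMB4 was at -0.13 with stallion 9 placed in autumn and at -0.20 without stallions 9 and 10. PSMB3 was at 0.14 without stallion 2 and at 0.56 without stallion 1. Stallion 2, at 5.05, was the lowest for PSMB3, where the other 9 ran from 5.56 to 6.38.

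Interferon-inducible beta subunits replace the catalytic ones in the immunoproteasome, which is typical of leukocytes. PSMB10 stood at 6.88 and 6.91 in the autumn-high group, at 7.04, 6.87 and 6.79 in the spring-high group, at 6.44 and 6.20 in the autumn-low group, and at 7.07, 6.78 and 6.48 in the spring-low group. All 5 high-fertility stallions thus lay between 6.79 and 7.04, and 4 of the 5 low-fertility ones lay below them, stallion 7 being the exception. The fertility difference was -0.35 (SE 0.16, unadjusted p = 0.0539, adjusted p = 1). PSMB10 was also among the members with the smallest p for the other comparisons, at 0.23 (SE 0.16) for season and 0.45 (SE 0.31) for the interaction.

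PSMB9 lay between 5.28 and 5.71 in 9 stallions and at 6.29 in stallion 7, and its interaction was 0.38 (SE 0.34). That interaction was 0.17 without stallion 7 and 0.20 without stallion 6. PSMB8 was flat, from 5.01 to 5.55, with a fertility difference of 0.06 (SE 0.17). PSMB11, the subunit of the thymus proteasome, ran from 4.63 to 5.45. The signal of 18 measured leukocyte markers, of 20 listed, averaged 5.24 to 5.44 in the autumn-high group, 5.11 to 5.40 in the spring-high group, 5.27 to 5.69 in the autumn-low group and 5.15 to 5.38 in the spring-low group. None of these markers was on the floor on every array, and 3 (CD3E, CD2 and S100A8) were on it on at least 1 array. In stallion 7, with the highest PSMB9 and PSMB10, the leukocyte list averaged 5.33, inside the range of the other arrays. Single leukocyte markers did differ between groups, though none passed after adjustment. S100A9 was at 8.24 and 8.19 in the autumn-low group, where PSMB10 was lowest, and at 4.78 to 6.63 elsewhere, with a fertility difference of 1.44 (SE 0.38, unadjusted p = 0.0040, adjusted p = 1). S100A12 differed by 0.90 (SE 0.26), and TYROBP and FCER1G, in the direction of PSMB10, by -0.43 (SE 0.18) and -0.38 (SE 0.16). These 4 markers were chosen after their values were seen. The part of leukocyte RNA in PSMB10 and PSMB9 signals was not tested.

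Among the ATPases of the 19S particle, PSMC1 had the smallest fertility p of all members. PSMC1 helps to open the gate of the core. Its signal was 6.12 and 5.98 in the autumn-high group, 6.17, 6.58 and 6.46 in the spring-high group, 6.93 and 6.67 in the autumn-low group, and 7.15, 6.35 and 7.13 in the spring-low group. Within each season the low-fertility mean was higher, but stallion 8 at 6.35 lay below stallions 4 and 9. The difference was 0.61 (SE 0.20, unadjusted p = 0.0131, adjusted p = 1). Across all 19 alternatives it stayed between 0.53 and 0.74, with adjusted p between 0.833 and 1. Some of these, such as the fit without moderation, cannot change the difference.

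The means of all 6 ATPase genes were higher in the low class, with a median of 0.13, while 65.1% of all genes were higher there and their median was 0.08. PSMC2 was next at 0.33 (SE 0.17), with group means of 5.78 ± 0.24 (n = 2) and 6.0 ± 0.30 (n = 3) in autumn and spring of high fertility and 6.09 ± 0.03 (n = 2) and 6.35 ± 0.19 (n = 3) of low fertility. Without stallions 2, 9 and 10 it was 0.20. The other 4 lay between 0.06 and 0.17. Within autumn 6 of 6 ATPase genes were higher in the low class, with a median of 0.33, and within spring 3 of 6, with a median of -0.01. Over all genes the shares were 66.0% in autumn and 50.6% in spring, with medians of 0.125 and 0.01. The autumn difference rests on 2 stallions per class, and those of high fertility include stallion 2, with a low-signal array. PSMC3 ran from 7.40 to 8.23, with its 3 lowest signals in stallions 8, 3 and 1. PSMC4 stood at 4.87 in stallion 8 and at 5.57 to 6.73 in the others. PSMC6 was near the floor, from 4.00 in stallion 7 to 4.78, where the floor can compress differences.

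Of the 10 measured non-ATPase subunits of the 19S particle, PSMD2 and PSMD1, its large scaffold subunits, had the outermost season differences of all members, in opposite directions. PSMD2 was 7.96 and 6.49 in the autumn-high group, 8.33, 8.48 and 7.67 in the spring-high group, 7.85 and 7.82 in the autumn-low group, and 8.09, 8.06 and 7.65 in the spring-low group. Stallion 2 was more than 1 unit below every other animal. The season difference of PSMD2 was 0.52 (SE 0.29), and it was 0.15 without stallion 2 and 0.88 without stallion 1. The season difference of PSMD1 was -0.56 (SE 0.25, unadjusted p = 0.0535, adjusted p = 1). Signals were 5.35, 5.29, 5.45 and 5.19 in the 4 autumn stallions, and 4.81, 4.81 and 4.35 in the spring stallions of high fertility. The spring stallions of low fertility overlapped with autumn, at 5.16, 5.34 and 4.12. Without stallions 2, 9 and 10 the difference of PSMD1 was -0.30, without stallion 10 alone it was -0.37, and with stallion 9 placed in autumn it was -0.32.

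PSMD13 and PSMD8, subunits of the lid of the 19S particle, were low on the low-signal arrays. PSMD13 was 5.60 in stallion 9 and 5.57 in stallion 10, 6.57 in stallion 2, and 6.71 to 7.80 in the other 7. PSMD8 was 5.98 to 6.21 in stallions 2, 9 and 10 and 6.73 to 7.42 in the others. PSMD12, also of the lid, had the smallest range of the regulatory genes, 0.60, between 5.06 and 5.66, and a fertility difference (low minus high) of -0.23 (SE 0.13). PSMD14, the subunit that cuts ubiquitin off the substrate, ran from 4.38 to 5.62 and differed by 0.21 (SE 0.26) for season and 0.14 (SE 0.26) for fertility. PSMD3 and PSMD6 had higher means in low fertility by 0.31 (SE 0.19) and 0.33 (SE 0.22).

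PSME4, the activator tied to histone loss in mouse spermatids, stood at 5.65 and 4.94 in the autumn-high group, at 6.11, 6.08 and 5.30 in the spring-high group, at 6.05 and 5.90 in the autumn-low group, and at 5.68, 5.60 and 4.02 in the spring-low group. From autumn to spring its mean went from 5.30 to 5.83 in high fertility and from 5.98 to 5.10 in low fertility. The interaction was -1.41 (SE 0.71, unadjusted p = 0.0797, adjusted p = 1). Stallion 10, almost on the floor, was more than 0.9 below the next lowest animal. The interaction was -0.87 without stallion 10 and -0.78 without stallions 2, 9 and 10.

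PSMF1, the gene of the proteasome inhibitor protein PI31, had the most negative interaction of all members, -1.82 (SE 0.85, unadjusted p = 0.0598, adjusted p = 1). Its signals were 7.95 and 7.16 in the autumn-high group, 9.07, 9.14 and 7.72 in the spring-high group, 8.18 and 8.99 in the autumn-low group, and 8.22, 8.51 and 6.82 in the spring-low group. Spring minus autumn was thus 1.09 in the high class and -0.74 in the low class. Without stallions 2, 9 and 10 the interaction was -1.38. PSME4 came next, and then PSMD8 at -1.06 (SE 0.62), which was -1.67 with stallion 9 placed in autumn. The subunits of the interferon-inducible activator, PSME1 and PSME2, had fertility differences of 0.18 (SE 0.19) and 0.20 (SE 0.27). PSME1 ran from 5.18 to 6.04, and PSME2 from 5.94 in stallion 4 to 7.47 in stallion 5.

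Of the assembly chaperones, PSMD5, PSMD9 and PSMD10 help to build the 19S base, and PSMG1 to PSMG4 the core. All 3 of the former had a lower mean in the low class, with low minus high at -0.25 (SE 0.14) for PSMD9, -0.11 (SE 0.18) for PSMD5 and -0.08 (SE 0.19) for PSMD10, where 34.7% of all genes had a lower mean. Within each season 2 of the 3 were lower, since PSMD10 was at 0.14 in autumn and PSMD5 at 0.06 in spring. The difference of PSMD9 was -0.15 without stallion 5. PSMD9 had the smallest range of the class, from 5.87 in stallion 5 to 6.53 in stallion 1. The season difference of PSMD5 was -0.38 (SE 0.18, unadjusted p = 0.0611, adjusted p = 1), with 5.47 and 5.83 in autumn and 4.90, 5.08 and 5.32 in spring of high fertility. In low fertility the seasons overlapped, at 5.43 and 5.31 in autumn and 4.79, 5.43 and 5.26 in spring.

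PSMG2 had the largest range of the assembly genes, 1.58, which came from 1 animal: it stood at 5.70 in stallion 6 and at 4.12 to 4.87 in the other 9. Its dimer partner PSMG1 was at 5.53 in stallion 6, inside its own range of 4.32 to 5.67. PSMG3 and PSMG4, which form the other dimer, had opposite extremes in stallion 7, with PSMG3 at its highest (5.98) and PSMG4 at its lowest (4.90). In stallion 8 PSMG3 was at its lowest (4.88) and PSMG4 at 6.13, its second highest. In stallion 4 both were high, PSMG3 at 5.92 and PSMG4 at its highest, 6.16. Fertility differences of the 4 genes lay between -0.26 and 0.17, and none passed.

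**Figure D3:**
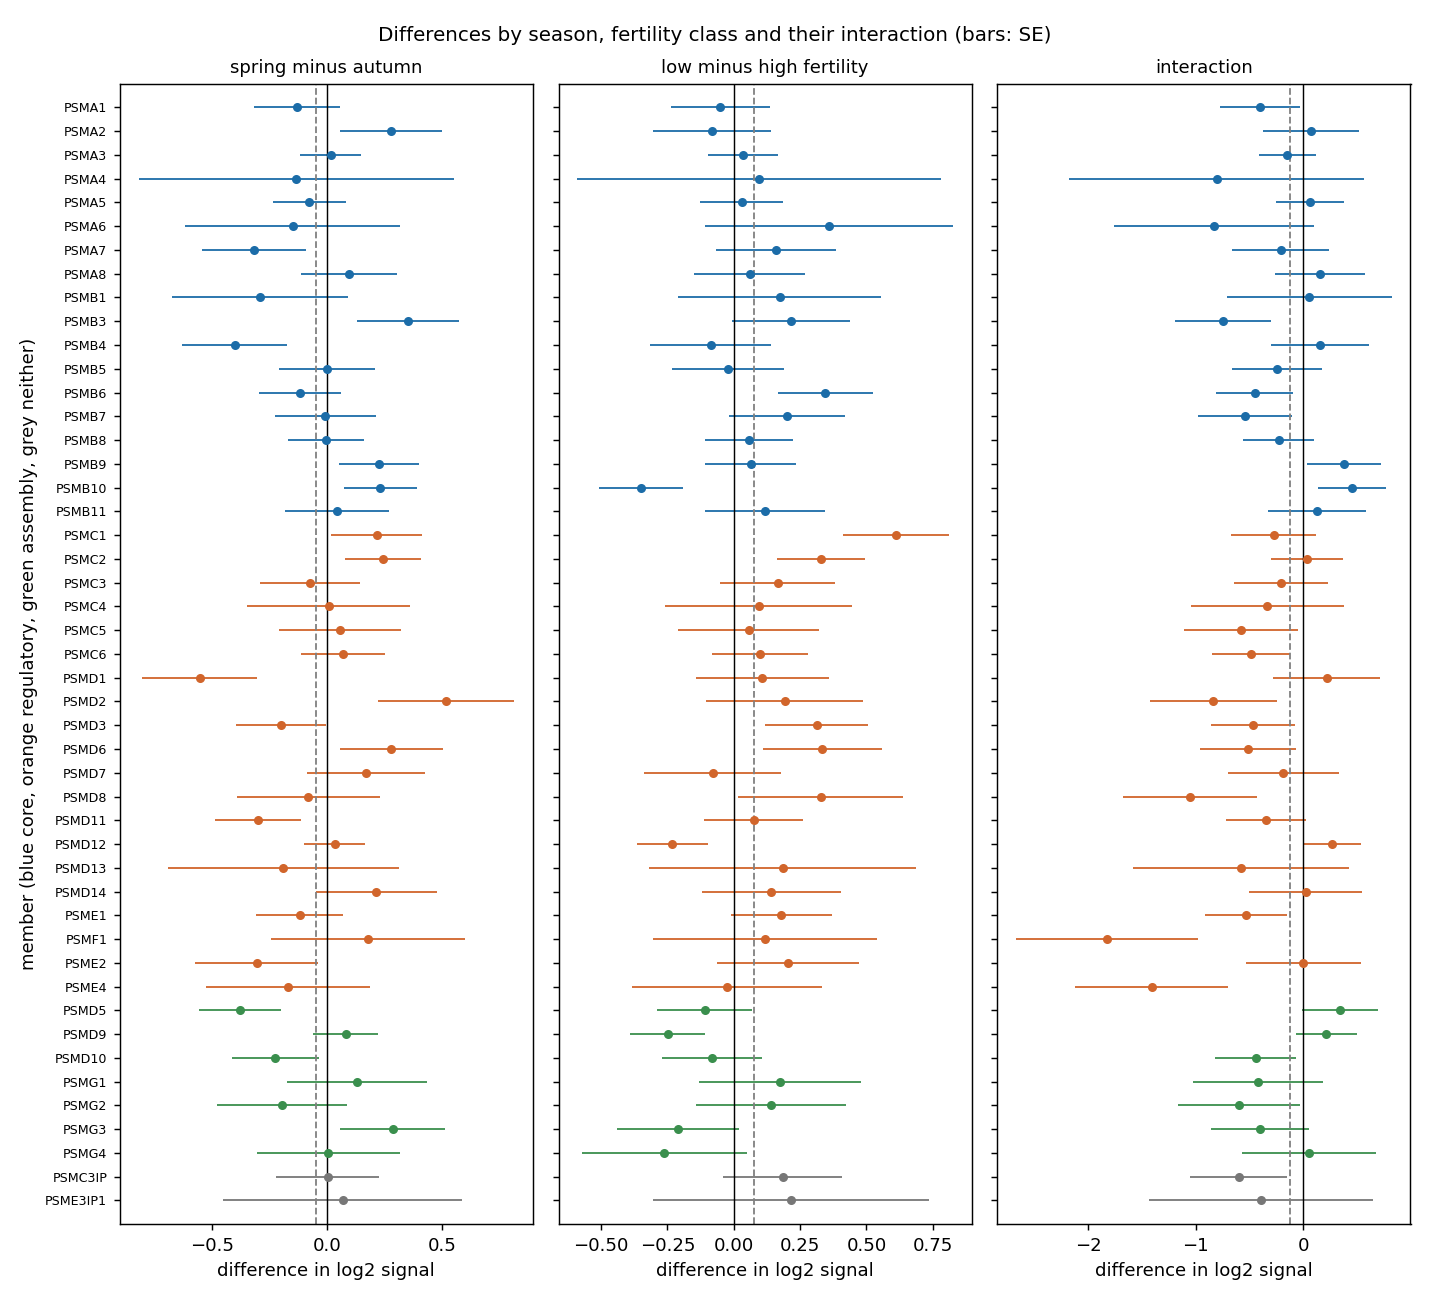
Difference in log2 signal (horizontal axis) of each member (vertical axis) for season, fertility class and their interaction, with bars of 1 SE from limma. Dashed lines are the medians over all genes. PSMC1 lies farthest to the right for fertility at 0.61, and PSMF1 farthest to the left for the interaction at -1.82, while none of the 47 members passed.

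By role, the season medians of the 3 classes lay near 0 and their fertility medians differed in sign. The season median was -0.01 for core, 0.02 for regulatory and 0.00 for assembly genes, against -0.05 over all genes, with 24 of 47 members higher and 23 lower in spring. The fertility median was 0.06 for core genes, 0.15 for regulatory genes and -0.11 for assembly genes, against 0.08 over all genes. Of the regulatory genes 17 of 20 had the higher mean in low fertility, of the core genes 13 of 18, and of the assembly genes 2 of 7, where 65.1% of all genes did. The seasons differed in this: in autumn 18 regulatory, 12 core and 3 assembly genes were higher, and in spring 8, 7 and 1. Over all members 34 (72.3%) were higher and 13 lower, near the share of all genes, and after quantile normalization 29 and 18. That scaling moved the fertility median over all probe sets from 0.05 to 0.001. Within autumn 35 were higher and 10 lower, and within spring 17 and 30, where all genes were at 66.0% and 50.6% higher. Without stallion 2 the averaged counts were 25 and 22, and without stallion 8 they were 24 and 23. Without stallions 2, 9 and 10 they were 25 and 22. The members' median fertility difference was then 0.03 in place of 0.11, and that over all probe sets -0.015 in place of 0.05. Stallions 2 and 9 are of high and stallion 10 of low fertility, so low-signal arrays are uneven over the classes. Their part in the fertility differences was not tested. Within a group, the median deviation over all 47 members varied between arrays with an SD of 0.17. That is the spread of single arrays, while the class medians compare means of 2 or 3 arrays per group. The SD is therefore no yardstick for the class medians, which were not tested.

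The interaction median was -0.18 for core, -0.41 for regulatory and -0.40 for assembly genes, against -0.12 over all genes, with 32 of 47 members (68.1%) negative against 61.3% of all genes. Taken within a class, the members' median season difference was 0.11 in the high class and -0.17 in the low class, against 0.01 and -0.10 over all genes. The interaction median of all members was -0.33, and it was -0.12 without stallion 2 and -0.05 without stallions 2, 9 and 10. Over all probe sets it was -0.07, and it was 0.06 and 0.07 in the same refits. After quantile normalization it was -0.24 for the members and 0.004 over all probe sets. With arrays centred on their medians these were -0.25 and 0.01. The autumn group of low fertility is the group without a low-signal array. Levels on the low-signal arrays move with the interaction, and their part in it was not tested.

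**Figure D4:**
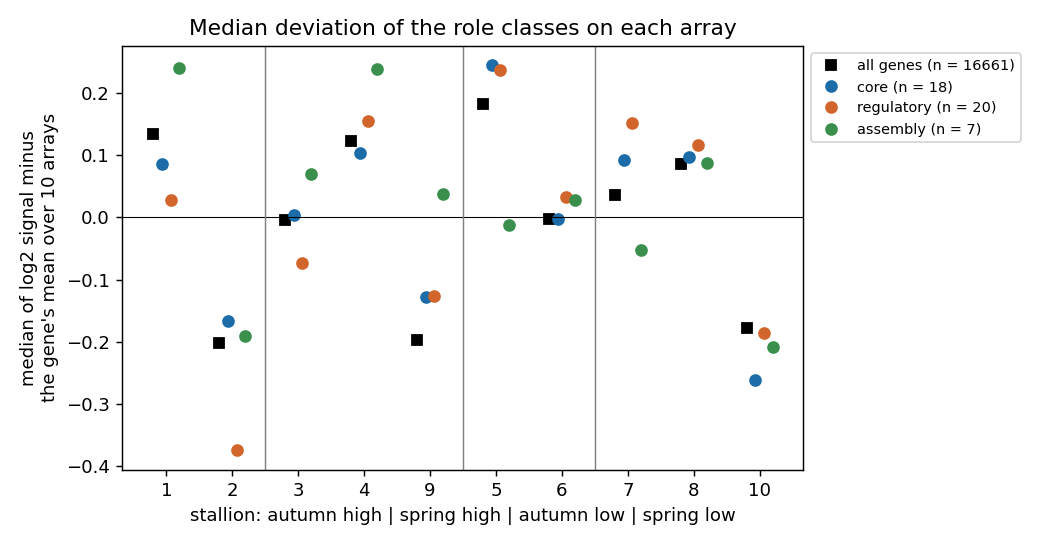
Median over the genes of a class of the log2 signal minus the gene's mean over the 10 arrays (vertical axis), for each stallion (horizontal axis, by group). Core, regulatory and all genes lie below 0 in stallions 2, 9 and 10, and the lowest point is that of the regulatory genes in stallion 2, at -0.37.

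The pattern with the largest differences was the drop of some members on the low-signal arrays of stallions 2, 9 and 10, which has no test here because the arrays were grouped by their own signal. In 12 of 47 members (25.5%) all 3 arrays lay below all 7 others, against 14.9% of all genes. These were PSMA4, PSMA6, PSMB7, PSMB11, PSMD2, PSMD8, PSMD13, PSME1, PSME4, PSMF1, PSMG1 and PSME3IP1. In 0 members did all 3 lie above, against 0.582% of all genes. The median difference between the 3 arrays and the others was -0.23 over the members and -0.27 over all genes; 80.9% of members and of all genes were lower there.

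Single members lay far from that median. PSMA4 differed by -1.83, PSMF1 by -1.35, PSME3IP1 by -1.32, PSMD13 by -1.29, PSMA6 by -1.18, PSME4 by -1.11 and PSMD8 by -1.01. At the other end PSMC3 differed by 0.29 and PSMD5 by 0.27. Subunits of the same ring or lid were thus found at both ends, as PSMA4 and PSMA7 (0.13) or PSMD13 and PSMD7 (0.15). With each array centred on its median, which brings the median over all genes to 0.01, 22 of 47 members were lower in place of 38. Then 3 members (6.38%) lay wholly below, PSMA4, PSMD8 and PSME3IP1, against 5.24% of all genes. Another 3 (6.38%) lay wholly above, PSMC3, PSMD5 and PSMD12, against 4.47% of all genes. Both counts are near the background. PSMA4 then differed by -1.55 and PSMD13 by -1.01. Signals of the sperm list were lower on the same arrays, with a median of -1.37 over its 12 genes, and their part in the members' drop was not tested.

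**Figure D5:**
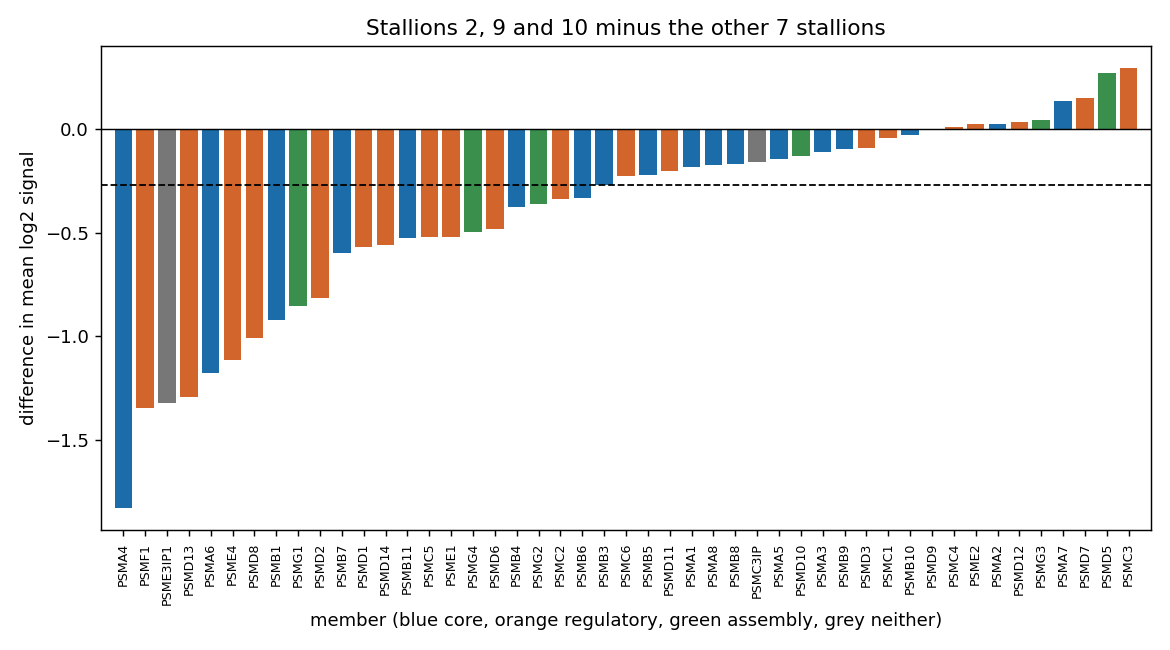
Difference in mean log2 signal between stallions 2, 9 and 10 and the other 7 (vertical axis) for each member (horizontal axis), coloured by role. The dashed line is the median over all genes, -0.27. PSMA4 lies lowest at -1.83 and PSMC3 highest at 0.29, and core, regulatory and assembly genes occur on both sides of the line.

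The genes that act with the proteasome were taken as lists of its partners (24 of 27 measured) and of ubiquitin and its transfer (28 of 33 measured). By limma, 0 passed in any of the 3 comparisons, every adjusted p being 1. At an unadjusted p under 0.05 1 of the partners was counted for season (ZFAND2A) and 1 for the interaction (RAD23B), and 1 of the ubiquitin genes for fertility (UBA1). Over all probe sets the shares at that level were 4.18%, 3.79% and 2.59%, so 1 of 24 and 1 of 28 are near the background. SEM1 and ADRM1, subunits of the 19S particle outside the symbol pattern, had no single-symbol probe set and were not analysed here. POMP, the maturation factor of the core, had an interaction of -1.23 (SE 0.57), with 5.16 and 4.61 in autumn and 6.11, 6.09 and 5.49 in spring of high fertility, and 6.11 and 5.63 in autumn and 6.18, 5.90 and 4.87 in spring of low fertility. USP14, a ubiquitin-removing enzyme on the 19S particle, had one of 0.44 (SE 0.37) and was within 4.76 to 5.16 but for stallion 6 at 4.15.

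RAD23B, which shuttles ubiquitinated proteins to the proteasome, had the smallest interaction p of both lists, at -1.65 (SE 0.61, unadjusted p = 0.0243, adjusted p = 1). RAD23B was at 7.03 and 7.84 in the autumn-low group and at 5.32 to 6.63 in the other 8 stallions. The share of all genes that set this group of 2 stallions apart in the same way was not counted. The leukocyte marker S100A9, chosen after its values were seen, set the same group apart, with an interaction of -1.90 (SE 0.75, unadjusted p = 0.0324, adjusted p = 1). The leukocyte list as a whole did not, since it averaged 5.69 and 5.27 in that group and 5.11 to 5.44 elsewhere. The part of leukocyte RNA in RAD23B was not tested. RAD23B also had a season difference of -0.68 (SE 0.30) and a fertility difference of 0.67 (SE 0.30). UBA1, the ubiquitin-activating enzyme gene, had the higher mean in low fertility by 0.55 (SE 0.23), and the zinc finger gene ZFAND2A a season difference of -0.40 (SE 0.17). RPS27A, a ubiquitin fusion gene, was at 0.49 (SE 0.27) and the deubiquitinase gene USP26 at 0.35 (SE 0.20) for season. UBQLN1, another shuttle, was at -0.45 (SE 0.22) and the ligase gene ITCH at -0.71 (SE 0.40) for fertility, and HUWE1, a ligase gene, at 0.72 (SE 0.51) for the interaction. Their adjusted p was 1 in each case.

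On the low-signal arrays both lists had lower medians, -0.35 for the partners and -0.73 for the ubiquitin genes, against -0.27 over all genes and -0.23 over the proteasome members. UBE2J1, a conjugating enzyme gene needed for sperm formation in mouse, was at 6.76 to 7.73 in stallions 2, 9 and 10 and at 8.88 to 9.72 in the other 7. NFE2L1, a transcription factor of proteasome genes, was at 5.46 to 6.04 and 6.33 to 7.62. UCHL5, a deubiquitinase of the 19S particle, overlapped, at 5.44 to 6.16 and 6.11 to 8.04. UBE2J1 and NFE2L1 were chosen after their values were seen.

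The 2 genes that share only the symbol did not pass either. PSMC3IP ran from 5.52 in stallion 2 to 6.57 in stallion 4, with a fertility difference of 0.18 (SE 0.22) and an interaction of -0.60 (SE 0.45). PSME3IP1 ran from 5.96 in stallion 9 to 8.44 in stallion 8. The 12 listed markers of earlier germ cells, the cells in which PSMC3IP has its known role, averaged 4.94 to 5.08 in stallions 2, 9 and 10 and 5.32 to 5.64 in the others. The median difference over this list was -0.32, near the -0.27 over all genes.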

How the data were processed

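Sperm RNA of 10 stallions was hybridised to Affymetrix arrays, 1 per stallion, per the labels. The deposited values are on a log2 scale, 1 per probe set, and none is below 4. GCOS 1.1.1 and Affymetrix Expression Console 1.1 appear in the submitters' processing notes. Summarisation and scaling were not given in the sources used here. Groups came from the season and fertility characteristics. Platform annotation gave 16789 probe sets 1 symbol, 343 several and 13427 none, and symbols can be old. The members and lists were chosen with earlier results of these data known.

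All 30559 probe sets were fitted in limma 3.58.1 (R 4.3.3) with a mean per group, and the contrasts for season and fertility were averaged over the other factor. The interaction is the season difference in low minus that in high fertility. Tests were two-sided with eBayes moderation (6 residual and 2.96 prior degrees of freedom) and the threshold was 0.05 after Benjamini-Hochberg adjustment across all probe sets. The fit was tested on simulated data. Named members were those of set roles, the 3 with the smallest unadjusted p per comparison and direction, and those of largest and smallest range per role. Other members given with values, such as PSMA6, PSMD13, PSMC3 and PSMG4, were chosen after their values were seen. Of the partner lists, the rule took set roles and the 2 with the smallest p per comparison and direction. Alternatives were other scalings, a filter on low means, no moderation, no interaction term, stallion 9 in autumn, the title format as a term, and arrays left out. Each stallion had 1 array, so p-values measure the spread between animals and handling together. The number of arrays limits the precision. No sequence was printed, as none was supplied.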

Additional observations from a re-analysis of the deposited data

How the results depend on the processing

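Under every alternative 0 members passed in any comparison, and the smallest adjusted p of a member was 0.611, for the interaction with stallion 9 in autumn. Where each group kept at least 2 stallions, 0 to 4 members per comparison were at an unadjusted p under 0.05. The count was 4 for fertility without moderation, where 933 of 30559 probe sets were at that level. It was also 4 for season without stallion 8, where 1760 probe sets were. In the main fit 1 member was counted for fertility and 0 for season, against 790 (2.59%) and 1278 (4.18%) probe sets. Whether the members exceeded this background was not tested. The 18 differences of members named for a small p kept their sign in all 335 refits and none passed. They were picked for a small p in these data, and some refits cannot change a sign. The estimates are the same without moderation and with the filter. The title-format term leaves those for fertility and the interaction as they were, and dropping the interaction term those for season. The filter on low means left out 13 of the 47 members. With 2 or 3 stallions a group, small differences could not be told from the spread, and differences near the floor are understated.

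Over all probe sets the 1 call per test became 3 for season and for any group difference, and 0 for fertility, without moderation. It became 0 for season and fertility without the interaction term, 0 for season, fertility and interaction without stallions 9 and 10, and 0 in all 4 tests without stallions 2, 9 and 10. Leaving out single stallions gave 0 to 18 calls for season, 0 to 13 for fertility, 0 to 15 for the interaction and 0 to 18 for any difference, the most without stallion 6. The cause was not tested. The members' median interaction of -0.33 was -0.24 after quantile normalization, -0.25 with arrays centred on their medians and -0.05 without stallions 2, 9 and 10. It ran from -0.43 to -0.12 when single stallions were left out. The members' median season difference ran from -0.13 to 0.10 and their fertility difference from 0.01 to 0.18. The 12 members wholly lower in stallions 2, 9 and 10 became 3 after quantile normalization and 3 with arrays centred on their medians, both chosen after seeing the data. Over all genes the share of 14.9% became 4.95% and 5.24%, against 6.38% of members under either scaling.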
